A study of Saccharomyces cerevisiae with 8 samples.

Results

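The genes described here encode the proteins of the large (60S) subunit of the cytosolic ribosome in budding yeast, Saccharomyces cerevisiae. They were chosen by name: every open-reading-frame transcript (ORF-T) in the deposited tables whose common name was RPL followed by a number, together with the stalk genes RPP0, RPP1A, RPP1B, RPP2A and RPP2B. This gave 80 members of 5171 ORF-Ts and of 7272 features in all, spread over 14 chromosomes. Of these, 68 formed 34 pairs of copies A and B and 12 had no partner among the members. RPL21A lay in a feature of another class, shared with neighbouring names, and was therefore not a member. The RPL7B feature also carried the name of the small nucleolar RNA SNR59, so reads of that RNA could not be separated from it, and the RPL29 feature also carried the name YFR032C-B.

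The assay was NET-seq, native elongating transcript sequencing: RNA polymerase II is pulled down with the RNA it is making, and the 3′ ends of that RNA are read. The strains were cac1, cac2 and cac3 deletion mutants (YSB3062, YSB3063 and YSB3064), set against wild type (YSC0001). All strains carried Rpb3-FLAG, a tagged polymerase subunit used for the purification, and all were grown to mid-log phase in the rich glucose medium YPD, with 2 biological replicates a group. The deleted genes code for the 3 parts of CAF-I (chromatin assembly factor I), a histone chaperone that places histones H3 and H4 on newly copied DNA. The wild-type strain is numbered apart from the mutants, and an effect of strain background cannot be told apart from that of the deletions. In these bulk cultures fewer cells of a type and less nascent RNA per cell cannot be told apart either.

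Large-subunit proteins fold around the 25S, 5.8S and 5S ribosomal RNAs. Some reach towards the peptidyl transferase centre or line part of the exit tunnel, and others form the stalk that recruits translation factors. In growing yeast their genes are among the most heavily transcribed, mostly from promoters bound by Rap1 with Fhl1 and Ifh1, and they are turned down together when growth slows. Most are present as a pair of near-identical copies left from an ancient genome duplication, and the sources used here do not say whether reads matching both copies were shared, assigned or dropped. Levels of single copies are therefore uncertain.

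Reads counted on features ran from 1880299 to 7705151 per library, both ends of that range being wild type, and each member had between 97 and 27297 reads per library. Features were checked for the deletions. RLF2, the gene of Cac1, had 14.1 and 13.5 RPKM in cac1 libraries against 38.9 and 37.4 RPKM in wild type. CAC2 had 19.5 and 20.2 RPKM in cac2 libraries against 65.0 and 57.0 RPKM in wild type, and MSI1, the gene of Cac3, had 34.5 and 30.0 RPKM in cac3 libraries against 70.5 and 73.2 RPKM in wild type. Each deleted gene was thus lowest in its own mutant but not empty. As a check of mating type, 6 a-cell markers summed to between 2246 and 2618 RPKM in the mutants and to 2611 and 2754 RPKM in wild type, with 1 of 6 lower and none at 0. The 4 alpha-cell markers summed to between 47.2 and 85.5 RPKM in the mutants and to 49.2 and 29.3 RPKM in wild type, where MF(ALPHA)1 was at 0 in replicate 2; 2 of 4 were higher. Among these was STE3, the a-factor receptor, with 14.04 to 22.2 RPKM in the mutant libraries against 2.998 and 1.89 RPKM in wild type (log2 change 3.02), and SAG1, the largest part of the sum, was at -0.01. Small nucleolar and spliceosomal RNAs held between 7.86% and 9.86% of reads in the mutants and 9.39% and 9.93% in wild type. Their part in the results below was not tested.

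Levels of the members are given in RPKM, reads per kilobase of feature scaled to library size, computed here from the deposited counts and scaled between libraries. The median over the 80 members was 611 RPKM in cac1, 662 RPKM in cac2, 699.6 RPKM in cac3 and 726 RPKM in wild type. Single members spanned a 51.1-fold range in wild type, where 21 members reached 1000 RPKM and 4 stayed under 200 RPKM. Ranks were stable between the 2 wild-type libraries, with a Spearman correlation of 0.98 over the 80 members, which share their feature lengths and sequence.

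The highest member was RPL28, the gene mutated in cycloheximide-resistant cyh2 strains. It had 2634 and 2532 RPKM in cac1, 2585 and 2800 RPKM in cac2, 2798 and 2848 RPKM in cac3, and 3298 and 3352 RPKM in wild type. The next was RPL41A, which encodes the shortest of the large-subunit proteins, with 1811 and 1947 RPKM in cac1, 2279 and 1927 RPKM in cac2, 2279 and 2240 RPKM in cac3, and 2432 and 2475 RPKM in wild type. In both genes every mutant library lay below both wild-type libraries. RPL10 (mean of 2274 RPKM in wild type), RPP0 (2066 RPKM) and RPL41B (2019 RPKM) completed the 5 highest. The wild-type libraries of RPL41A, RPL10 and RPP0 did not overlap one another, while RPL41B, with 1842 and 2196 RPKM, overlapped RPP0, with 2018 and 2114 RPKM.

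At the other end stood RPL15B, the weakly transcribed copy of the RPL15 pair, with 94.0 and 67.1 RPKM in cac1, 73.6 and 65.0 RPKM in cac2, 68.3 and 57.6 RPKM in cac3, and 75.7 and 54.5 RPKM in wild type. Its mutant and wild-type libraries overlapped, and its change of 0.18 on the log2 scale did not pass the test. RPL4B (87.4 RPKM in wild type) and RPL4A (138.5 RPKM), which encode a protein lining the exit tunnel, came next. RPL1A (185 RPKM), a gene of the mobile L1 stalk, and RPL11A (318 RPKM) followed. None of these 5 lowest members was called in the mean of the 3 mutants.

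Together the 80 members took a smaller share of ORF-T reads in every mutant library than in either wild-type library. The share was 6.74% and 6.98% in cac1, 7.38% and 7.36% in cac2, 7.58% and 7.70% in cac3, and 7.86% and 8.09% in wild type. The 4 groups did not overlap and followed the order cac1, cac2, cac3, wild type. The 55 small-subunit genes had the same order of groups, with 4.93% and 5.18% in cac1, 5.33% and 5.40% in cac2, 5.51% and 5.62% in cac3, and 5.83% and 5.94% in wild type.

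**Figure D1:**
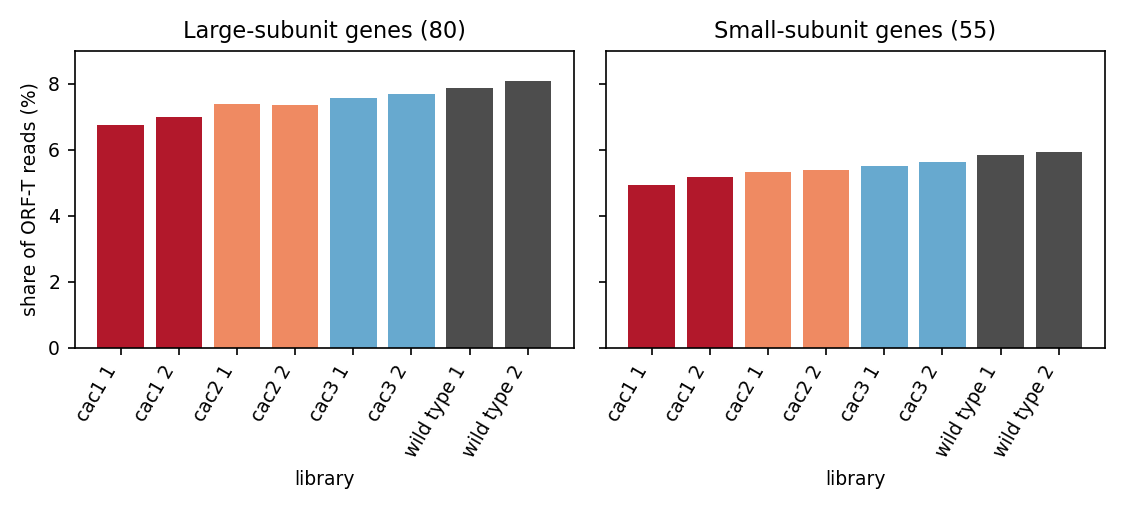
Share of ORF-T reads (%, from 0) taken by the 80 large-subunit genes (left) and the 55 small-subunit genes (right) in each of the 8 libraries, 1 bar per library. The large-subunit bars are lowest in cac1 (6.74% and 6.98%) and highest in wild type (7.86% and 8.09%).

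The first comparison asked whether loss of CAF-I changed the transcription of these genes, taking the mean of the 3 mutants against wild type. Of 80 members, 46 fell and none rose, with a median of -0.18 on the log2 scale, a level 0.885 times that of wild type. Among all ORF-Ts tested, 8.35% fell and 10.8% rose, 432 and 557 in number, with a median of 0.00. No member was higher at an unadjusted p below 0.05 either, and DESeq2 called 39 lower and 0 higher, against 3.95% lower and 5.59% higher over ORF-Ts. With the replicate number as a block 13.5% of ORF-Ts fell, and 63 members did. The changes were small and even: the middle 50% of members lay between -0.22 and -0.13, and 77 of 80 were negative. In 43 members all 6 mutant libraries lay below both wild-type libraries, which held for 15.1% of ORF-Ts. Without scaling beyond total reads the ORF-T median was 0.06, 233 ORF-Ts fell and 828 rose, and 24 members fell. Fewer ORF-Ts, and fewer members, fell once a cac3 or wild-type library was left out. The count of falls was 30 without either cac3 library and 27 without wild-type replicate 1. It was 5 when wild-type replicate 2, the deepest library, was left out, and 1.18% of ORF-Ts fell then.

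The member with the largest fall was RPL36A. It (YMR194W, chromosome XIII, 651113 to 652009, plus strand, in the deposited tables, whose build the sources used here do not name) had 423 and 480 RPKM in cac1, 468 and 525 RPKM in cac2, 531 and 550.4 RPKM in cac3, and 614 and 662 RPKM in wild type. No mutant library reached either wild-type value. The fall was -0.37 on the log2 scale (SE 0.063, edgeR adjusted p = 0.00291).

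RPL26B (YGR034W, chromosome VII, 555739 to 556803, plus strand) encodes a protein near the exit of the tunnel. It had 446 and 506 RPKM in cac1, 552 and 504 RPKM in cac2, 585 and 582 RPKM in cac3, and 667 and 666 RPKM in wild type. All mutant libraries lay below both wild-type libraries, although cac1 and cac2 overlapped, and the change on the log2 scale was -0.34 (SE 0.055, edgeR adjusted p = 0.00222).

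RPL28, the highest member, fell by 0.30 on the log2 scale (SE 0.037, edgeR adjusted p = 0.000423). It was 1 of only 2 members called in each of the 3 mutants on its own.

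RPL7B fell by 0.33 on the log2 scale in the mean of the 3 mutants; it averaged 425 RPKM in cac1 alone, against 602 RPKM in wild type. RPL21B fell by 0.32, RPL2A by 0.28 and RPL20B by 0.28 on the same scale, each with all mutant libraries below both wild-type libraries. RPL2A encodes a protein conserved in all ribosomes that lies close to the peptidyl transferase centre. Without wild-type replicate 2, the calls of RPL36A (-0.31), RPL26B (-0.34), RPL7B (-0.24) and RPL20B (-0.24) were lost, whereas RPL21B, RPL28, RPL2A and RPL22B were among the 5 that passed.

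The stalk recruits the GTPases that drive translation; its base is the protein P0, onto which P1 and P2 heterodimers are mounted. RPP0 had 1799 and 1736 RPKM in cac1, 1715 and 1737 RPKM in cac2, 1834 and 1889 RPKM in cac3, and 2018 and 2114 RPKM in wild type. It fell by 0.21 on the log2 scale (SE 0.035, edgeR adjusted p = 0.0024), with no overlap between mutants and wild type, but was not called without wild-type replicate 2 (-0.18). Of the P1 and P2 genes, RPP2B fell by 0.17 (adjusted p = 0.0356), although its mutant and wild-type libraries overlapped and the call was lost in 7 alternatives, among them the one without scaling (-0.11) and the DESeq2 test (-0.17). RPP1A (-0.14), RPP1B (-0.10) and RPP2A (-0.11) did not pass. In cac1 alone, RPP1A (-0.28, adjusted p = 0.0161) and RPP2B (-0.31, adjusted p = 0.00704) passed. With the replicate number as a block, RPP1A (-0.14) and RPP2A (-0.11) were also called in the mean of the mutants.

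RPL40A and RPL40B encode the same protein as a fusion to ubiquitin, which is cleaved off. RPL40B had 495 and 558 RPKM in cac1, 603 and 571 RPKM in cac2, 675 and 651 RPKM in cac3, and 671 and 775 RPKM in wild type. Thus 1 cac3 library lay above 1 wild-type library, and the fall of 0.30 on the log2 scale (SE 0.063, edgeR adjusted p = 0.00885) was lost without wild-type replicate 2 (-0.19). RPL40A fell by 0.17 (adjusted p = 0.0222), a call lost without scaling (-0.12).

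Rpl5 and Rpl11 enter the subunit together with 5S ribosomal RNA. RPL11B, the higher copy, had 325 and 351 RPKM in cac1, 374 and 400.5 RPKM in cac2, 431 and 429 RPKM in cac3, and 435 and 469 RPKM in wild type. It fell by 0.24 on the log2 scale (SE 0.058, edgeR adjusted p = 0.0163), and without wild-type replicate 2 the call was lost (-0.19). RPL11A, at -0.17, did not pass in the mean of the mutants but fell in cac1 alone (-0.37, adjusted p = 0.0203). RPL5 was at -0.03 and was called in no mutant.

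Several other members with well-known roles did not pass in the mean of the mutants. RPL3, whose protein reaches into the peptidyl transferase centre, had 1729 and 1519 RPKM in cac1, 1549 and 1558 RPKM in cac2, 1683 and 1678 RPKM in cac3, and 1598 and 1574 RPKM in wild type. RPL10, whose protein joins the subunit last, in the cytoplasm, had 2312 and 2131 RPKM in cac1, 2341 and 2310.0 RPKM in cac2, 2321 and 2283 RPKM in cac3, and 2233 and 2315 RPKM in wild type. In both the groups overlapped, and the log2 changes of 0.03 for RPL3 (SE 0.045) and 0.00 for RPL10 (SE 0.039) did not pass. Together with RPL15B they were the only 3 members with a positive value. RPL25, which binds near the tunnel exit and contacts the signal recognition particle, was at -0.07. RPL30, whose protein represses the splicing of its own transcript, had 1525 and 1650.0 RPKM in cac1, 1826 and 1794 RPKM in cac2, 1771 and 1878 RPKM in cac3, and 1880.0 and 1898 RPKM in wild type. All mutant libraries of RPL30 lay below wild type. It fell in cac1 alone (-0.25, adjusted p = 0.00857), while the mean of the mutants, at -0.12, did not pass (adjusted p = 0.0656).

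The mutants differed in how many members fell. In cac1, 61 of 80 fell (8.04% of ORF-Ts), by a median of -0.28. In cac2, 25 fell (5.96% of ORF-Ts), by a median of -0.15, and 42 did with the replicate number as a block (10.5% of ORF-Ts then). In cac3, 2 fell (1.8% of ORF-Ts), by a median of -0.08, and 9 did with the block (4.91% of ORF-Ts then). No member rose in cac1 (9.8% of ORF-Ts rose), cac2 (8.47%) or cac3 (3.54%), where 0 were higher at an unadjusted p below 0.05 and DESeq2 called 0, although with the block RPL15B was called higher in cac1 (0.32). Of the 25 members that fell in cac2, 24 also fell in cac1 and RPL8B did not pass there, and 62 members fell in at least 1 mutant. The share of ORF-Ts that fell in at least 1 mutant was not counted.

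The counts depended on single libraries. The cac1 count was 40 without cac1 replicate 1 and 14 without wild-type replicate 2. The cac2 count was 12 without cac2 replicate 2, 13 when wild-type replicate 1 was left out and 4 when replicate 2 was. The cac3 count was 0 without either cac3 library or either wild-type library. Falls over all ORF-Ts also became fewer in each of these fits. In these fits the group left with 1 library was assumed to vary like the others.

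**Figure D2:**
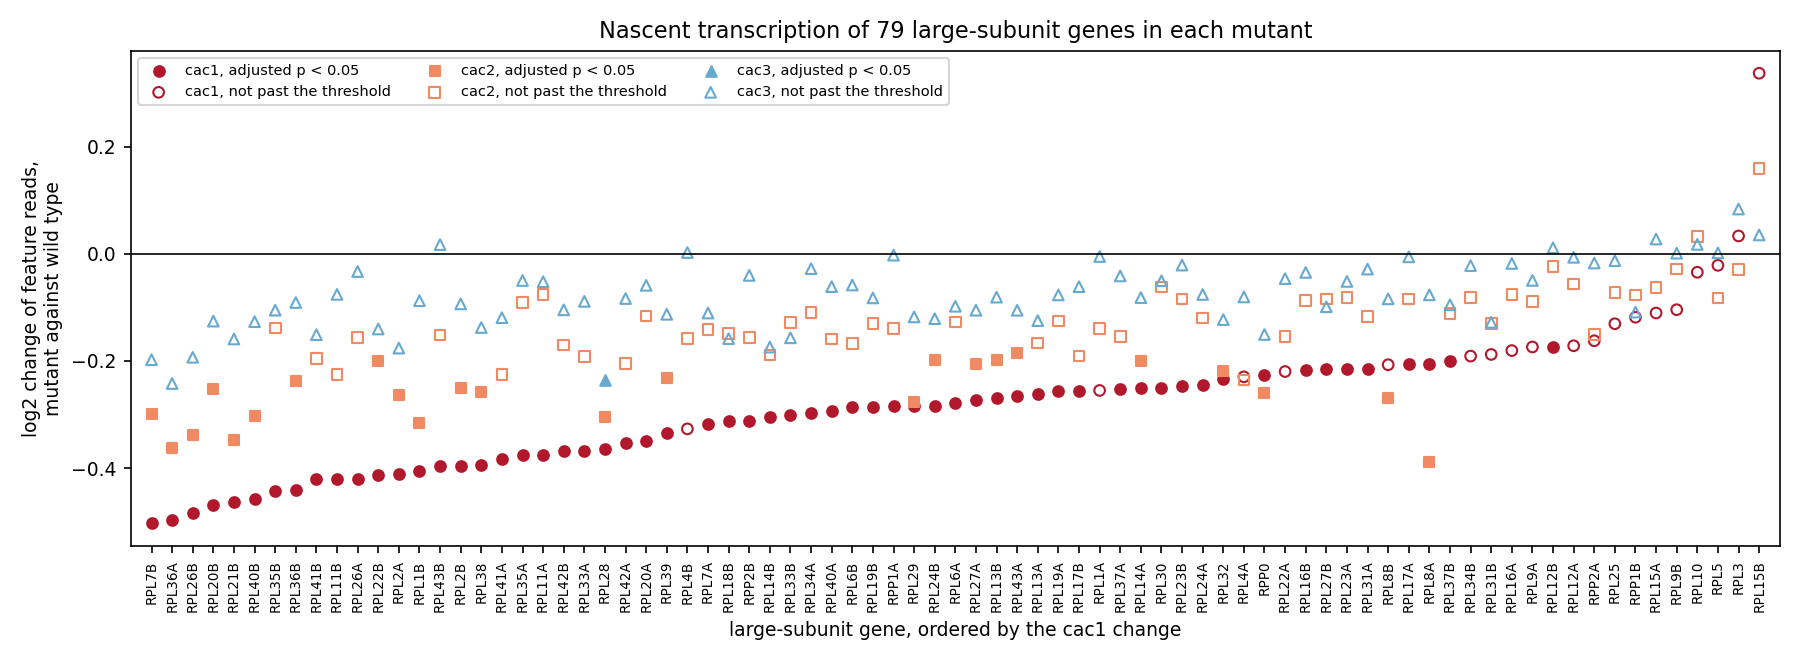
Log2 change of feature reads in cac1 (circles), cac2 (squares) and cac3 (triangles) against wild type for 79 of the 80 members, ordered by the cac1 change; filled symbols passed an adjusted p of 0.05 and open ones did not. The cac1 symbols lie lowest for most genes (60 filled), followed by cac2 (24 filled) and cac3 (1 filled).

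In 68 of 80 members the 3 changes stood in the order cac1, cac2, cac3, from most to least negative. The share of ORF-Ts in that order was not counted, and the comparisons share the wild-type libraries. The mutants were therefore also compared with each other, without wild type in the contrast. The wild-type libraries stayed in the fit, so they still entered the spread that set the calls. Against cac3, cac1 was lower in 11 members and higher in none (0.793% of ORF-Ts lower and 0.619% higher), with a median of -0.19. With the replicate block the count was 50 (3.89% of ORF-Ts), with DESeq2 25 (1.32%), and with only the groups compared in the fit 2 (0.271%). It was 1 without cac1 replicate 1, 18 without cac1 replicate 2, 0 without either cac3 library, 2 when wild-type replicate 1 was left out and 1 when replicate 2 was. Against cac3, cac2 was lower in 1 member (0.348% of ORF-Ts lower and 0.367% higher), a call lost when any cac2, cac3 or wild-type library was left out. Between cac1 and cac2 edgeR called no member (0.0193% of ORF-Ts lower and 0.058% higher), and DESeq2 called 0. An unadjusted p below 0.05 in edgeR was reached by 30 members (29 lower, 1 higher). The share of ORF-Ts at that cut was not counted in any comparison. With the block, RPL26A, RPL35A, RPL35B and RPL43B were lower in cac1 than in cac2, as were 0.232% of ORF-Ts.

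The largest difference between cac1 and cac3 was in RPL43B, which had 854 and 849.6 RPKM in cac1 and 1120.0 and 1148 RPKM in cac3. Its cac2 libraries had 1066 and 953 RPKM and its wild-type libraries 1112 and 1129 RPKM, so cac3 stood with wild type. The log2 difference was -0.41 (SE 0.058, edgeR adjusted p = 0.00689). RPL26A differed by -0.39 (adjusted p = 0.0469) and RPL36B by -0.35 (adjusted p = 0.0159) in the same direction.

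RPL8A departed from the usual order. It had 732 and 765 RPKM in cac1, 670.3 and 651 RPKM in cac2, 847 and 792 RPKM in cac3, and 867 and 861 RPKM in wild type, so that cac2 was lowest. It was the 1 member called between cac2 and cac3 (log2 difference -0.31, SE 0.058, edgeR adjusted p = 0.0431).

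The second deposited count covered a window at the 5′ end of each feature. It ran from 100 bp inside the feature to the next upstream feature of the ORF-T table, at most 500 bp away, as recovered from the deposited RPKM; this held for 78 of 80 members. Windows were 188 to 600 bp wide, 39 of them 600 bp. The sources used here do not name its strand. In 73 members the whole window held fewer reads than an average 100 bp of the feature, although it includes the first 100 bp, so it did not count the gene's own strand in full.

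Window reads of the members were few and higher in the mutants. Summed over the 80 members there were 2.21 and 2.19 window reads per 100 feature reads in cac1, 2.26 and 2.25 in cac2, 1.87 and 1.91 in cac3, and 1.504 and 1.509 in wild type. Every mutant library lay above both wild-type libraries, and cac3 lay between the other mutants and wild type. The other 5089 ORF-Ts with a window, summed in the same way, had 21.0 and 20.8 in cac1, 22.3 and 23.1 in cac2, 20.7 and 21.9 in cac3, and 21.7 and 22.3 in wild type, so there the mutants and wild type overlapped. The small-subunit genes had 2.30 and 2.08 in cac1, 2.37 and 2.25 in cac2, 1.93 and 1.91 in cac3, and 1.58 and 1.65 in wild type.

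**Figure D3:**
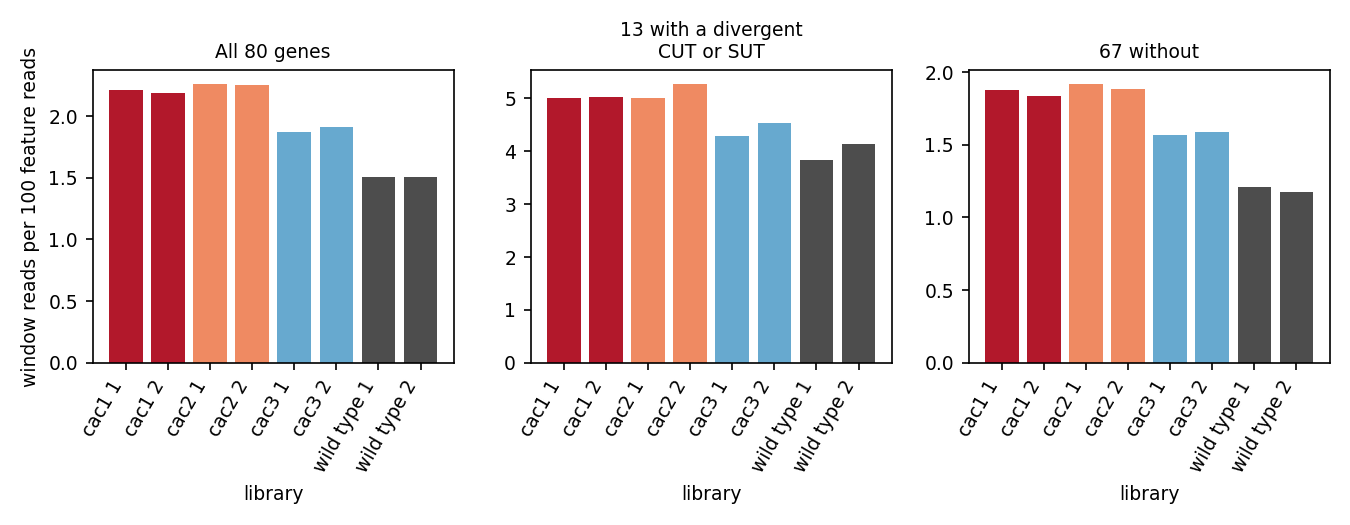
Window reads per 100 feature reads (from 0, scale differing between panels), summed over all 80 members (left), over the 13 with an annotated divergent noncoding transcript (middle) and over the 67 without one (right), 1 bar per library. In all 3 panels the wild-type bars are lowest; over all members they stand at 1.504 and 1.509, against 2.26 and 2.25 in cac2.

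In the fit of window reads alone, which does not divide by the feature, 36 of 80 members rose and 1 fell in the mean of the 3 mutants. Of all ORF-T windows, 18.4% rose and 4.32% fell. The median log2 change was 0.76 over the members and 0.16 over ORF-Ts. With libraries scaled on the windows themselves these medians were 0.63 and 0.03, 28 members rose and 3 fell, and 744 ORF-T windows rose and 586 fell, against 952 and 223 with the scaling used here. In 38 members all mutant libraries lay above both wild-type libraries, as they did in 25.4% of ORF-Ts. By mutant, 24 rose and 2 fell in cac1 (15.3% and 4.41% of ORF-Ts), 29 rose and 0 fell in cac2 (16.8% and 1.63%), and 10 rose and 0 fell in cac3 (5.4% and 0.774%). Lower windows with an unadjusted p below 0.05 numbered 0 in cac2 and 1 in cac3, and DESeq2 called 0 lower in each. With the replicate block, 21 rose in cac3 (11.8% of ORF-Ts), and 7.63% of ORF-T windows fell in the mean of the mutants. Between mutants edgeR called no member window, and DESeq2 called 0. At an unadjusted p below 0.05 in edgeR there were 13 for cac1 against cac3, 13 for cac2 against cac3 and 6 for cac1 against cac2. Shares of ORF-T windows at that cut were not counted. With the block, 2 member windows were higher and 1 lower in cac1 than in cac3, and 1 was higher in cac2 than in cac3. In 10 members the window rose in each of the 3 mutants: RPL1B, RPL6B, RPL11B, RPL13B, RPL20B, RPL22A, RPL26B, RPL33B, RPL36A and RPL42A. These are the same 10 that rose in cac3. The 3 comparisons share the wild-type libraries, and the share of ORF-T windows that rose in all 3 was not counted.

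These counts depended on the test and on the wild-type libraries. DESeq2 called 13 windows higher in the mean of the mutants, 11 in cac1, 14 in cac2 and 3 in cac3, where 6.58%, 4.18%, 5.54% and 0.871% of ORF-T windows were higher by the same test. Without wild-type replicate 2 the counts were 6, 6, 6 and 1 in the same order, and the ORF-T shares were 1.37%, 1.3%, 1.88% and 0.0387%. Without wild-type replicate 1 the mean of the mutants gave 23. Leaving out cac1 replicate 2 gave 15 in cac1, leaving out cac2 replicate 1 gave 17 and cac2 replicate 2 gave 19 in cac2, and leaving out either cac3 library gave 4 in cac3. Fewer ORF-T windows rose in each of these fits as well. Over the 80 members the window change had a Spearman correlation of -0.78 with the wild-type window level, to which it is tied because both use the wild-type counts.

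Many of the largest changes rested on few reads in wild type. RPL22A, whose protein inhibits splicing of the RPL22B transcript, had 20 and 56 window reads in cac1, 33 and 38 in cac2, 49 and 39 in cac3, and 2 and 3 in wild type. The pooled rate was 16.4 times that of wild type (exact 95% interval 6.95 to 51.1, counting error only). The log2 change was 4.05 (SE 0.39, edgeR adjusted p = 4.3e-05). In DESeq2 it was 4.08 with a larger SE of 0.73. RPL13B had 12 and 32 window reads in cac1, 14 and 23 in cac2, 25 and 30 in cac3, and 0 and 3 in wild type, a ratio of 15.9 (exact interval 5.31 to 77.9). In both genes each mutant library exceeded each wild-type library after scaling, while their features changed by -0.14 (RPL22A, not called) and -0.18 (RPL13B, called).

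RPL33B, with a window change of 2.71 on the log2 scale (adjusted p = 0.000836) and 7 wild-type window reads in all, and RPL19A, with 2.35 (adjusted p = 0.0181) and 6 wild-type window reads in all, came next. Both calls were lost without wild-type replicate 2 (RPL33B 3.14, RPL19A 2.58). Over the 8 libraries 13 members had fewer than 100 window reads.

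A better-covered example was RPL26B, 644 bp from the divergently transcribed TIM21. Its window held 128 and 369 reads in cac1, 158 and 271 in cac2, 370 and 367 in cac3, and 22 and 144 in wild type. In CPM, counts scaled to a common library size, that was 63.9 and 77.0 in cac1, 68.5 and 72.1 in cac2, 51.9 and 56.4 in cac3, and 11.9 and 19.4 in wild type. All 3 mutants thus stood well apart from wild type, by 1.92 on the log2 scale (SE 0.15, edgeR adjusted p = 1.9e-05).

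RPL36A, the member with the largest fall of its feature, also had a higher window. In CPM its window had 19.5 and 23.6 in cac1, 19.1 and 17.8 in cac2, 13.3 and 17.7 in cac3, and 5.43 and 7.54 in wild type. The log2 change was 1.40 (SE 0.20, edgeR adjusted p = 0.000634), with no overlap between the groups.

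The 1 window that fell in the mean of the mutants was that of RPL1A. In CPM it had 35.4 and 28.4 in cac1, 33.4 and 38.3 in cac2, 30.6 and 36.4 in cac3, and 41.8 and 46.3 in wild type. Its log2 change was -0.41 (SE 0.12, edgeR adjusted p = 0.022), and the call was lost with DESeq2 (-0.41), without cac1 replicate 2 (-0.35) and without wild-type replicate 2 (-0.32). In cac1 the RPL14A window also fell (-0.40, adjusted p = 0.0291). The cac1 count of 2 lower windows was 1 without cac1 replicate 1 or wild-type replicate 1, and 0 without cac1 replicate 2 or wild-type replicate 2.

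Taken gene by gene, 25 members had both a lower feature and a higher window, 21 a lower feature only, 11 a higher window only, and 23 neither. In 66 members the feature change was negative and the window change positive. Over ORF-Ts, 8.35% of features fell and 18.4% of windows rose, but shares for the 2 combined were not counted. Across the 80 members the 2 changes had a Spearman correlation of -0.20, and they share the same libraries and scaling. The feature change had a Spearman correlation of -0.04 with the wild-type level.

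**Figure D4:**
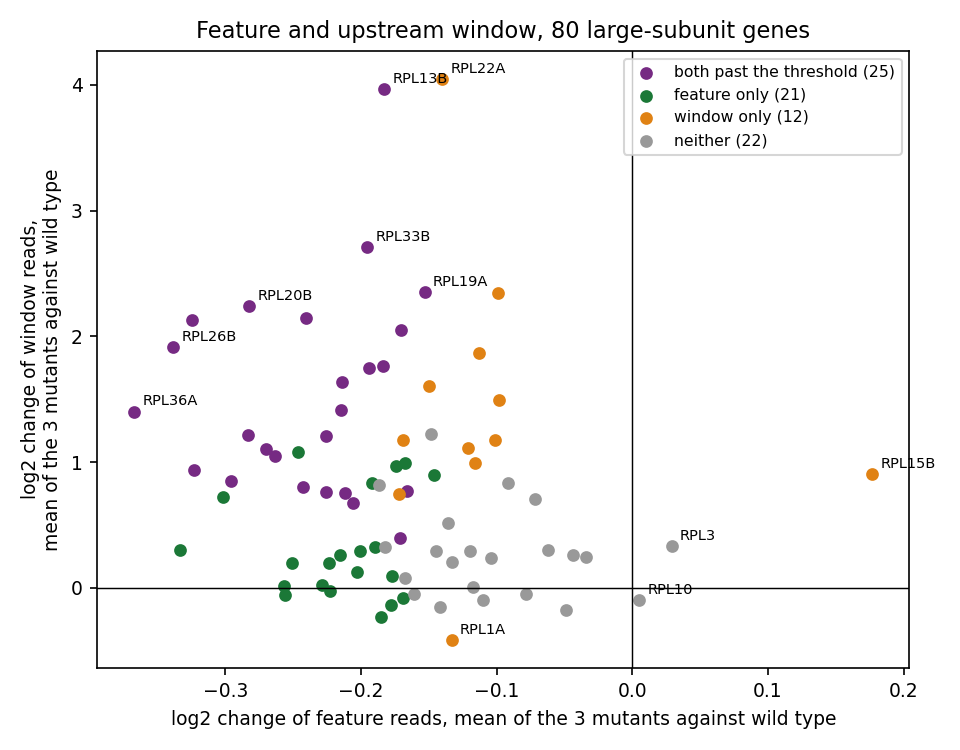
Log2 change of window reads against log2 change of feature reads in the mean of the 3 mutants, 1 point per member, coloured by which of the 2 passed an adjusted p of 0.05 (both 25, feature only 21, window only 12, neither 22). Most points lie in the upper left; the 12 window-only points include RPL1A, whose window fell.

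Annotated divergent transcripts were counted beside the windows. In 13 members a cryptic unstable transcript (CUT) or stable unannotated transcript (SUT) began on the other strand between 100 bp inside the feature and 500 bp upstream. These 13 members had more window reads, 5.02 and 5.03 per 100 feature reads in cac1, 5.02 and 5.27 in cac2, 4.29 and 4.54 in cac3, and 3.83 and 4.15 in wild type. Their windows changed by a median of 0.30 on the log2 scale (4 rose, 1 fell). The other 67 had 1.87 and 1.84 in cac1, 1.92 and 1.89 in cac2, 1.57 and 1.59 in cac3, and 1.21 and 1.18 in wild type, and a median window change of 0.81 (32 rose, none fell). These ratios also depend on the feature level. In wild type the median feature had 538.8 and 550.6 RPKM in the 13 members, and 719 and 755 RPKM in the 67. The median window, per kilobase of window, had 24.5 and 33.9 RPKM in the 13, and 8.59 and 8.18 RPKM in the 67. The difference between these classes was not tested.

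Of the 13 transcripts themselves, 4 rose and 0 fell in the mean of the mutants, with a median of 0.28; among 1771 CUTs and SUTs tested, 15.2% rose and the median was 0.06. The 4 were SUT306 beside RPL15B, SUT620 beside RPL17B, SUT092 beside RPL34A and SUT242 beside RPL40B. SUT306 averaged 25.1 ± 4.58 RPKM in cac1, 30.6 ± 3.94 RPKM in cac2, 20.1 ± 1.87 RPKM in cac3 and 14.8 ± 1.34 RPKM in wild type (SD, n = 2 each), higher by 0.76 on the log2 scale (SE 0.18, edgeR adjusted p = 0.0147). SUT620 rose by 2.74 (adjusted p = 0.011) on few reads, with 5 to 24 in the mutant libraries and 2 in each wild-type library. CUT884, beside RPL1A, changed by -0.29 (SE 0.099) and did not pass (adjusted p = 0.0614).

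Counts were also split by the layout of the upstream gene, a split that was not tested. With a divergently transcribed gene upstream, 20 of 43 windows rose (median log2 change 0.75). With a gene upstream on the same strand, 16 of 37 rose and 1 fell (median 0.81). Features fell in 26 of the 43 members with a divergent neighbour and in 20 of the 37 with a tandem one. For 8 members the next upstream gene was another ribosomal protein gene, in 6 of them divergent. RPL24A and RPL30 are transcribed away from each other across 548 bp, so their windows overlap in position. The RPL30 window rose by 1.12 on the log2 scale (adjusted p = 0.0191) and that of RPL24A was at 0.90 (adjusted p = 0.129).

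The copies of a pair were compared within each library as the log2 ratio of copy A to copy B, counts per kilobase with a pseudocount of 1, so that library scaling cancels. In wild type copy A was higher in 19 of 34 pairs and copy B in 15. The median pair differed by 0.42 on the log2 scale and 5 pairs differed over 2-fold. In 28 pairs the same copy was higher in all 8 libraries. The 12 members with no partner among the members include RPL21B, since RPL21A was left out. Their median level was 1449 RPKM in wild type, against 721 RPKM for the 68 paired members. The treatment of reads matching both copies is not given, as said above. This gap and the ratios within pairs therefore cannot be read as transcription alone.

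The most unequal pair was RPL15, whose A copy stood 16.3-fold above its B copy in wild type. The RPL15 log2 ratio was 3.52 and 3.69 in cac1, 3.87 and 3.84 in cac2, 4.0 and 4.18 in cac3, and 3.79 and 4.26 in wild type. The mutants overlapped wild type, and the change of -0.18 was the largest of any member pair in size (exact permutation p = 0.464, two-sided). Among the next were RPL36 with B 2.30-fold above A and RPL7 with A 2.26-fold above B. The most even pairs were RPL24, RPL22 and RPL42, with ratios of A to B of 1.00, 1.01 and 0.968.

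**Figure D5:**
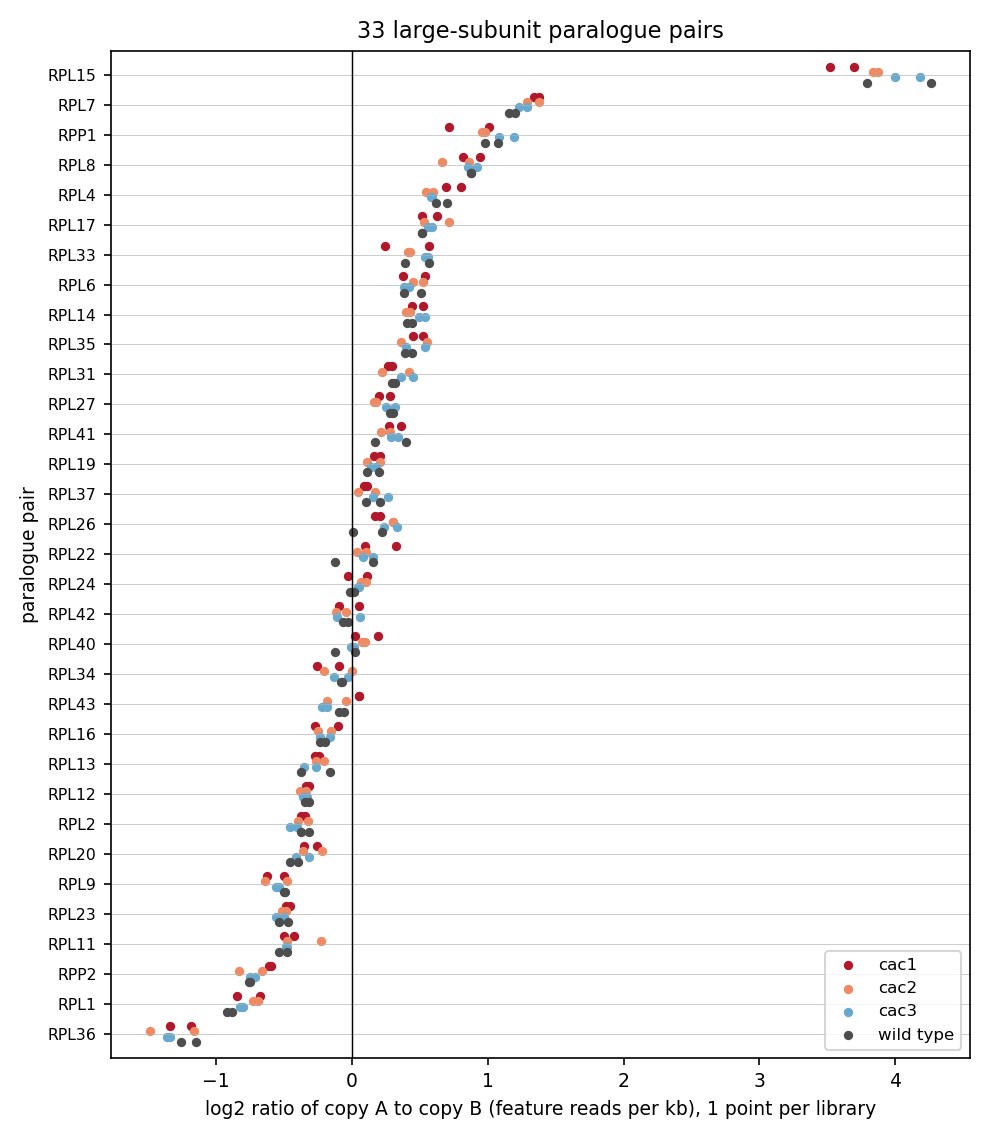
Log2 ratio of copy A to copy B for 33 of the 34 large-subunit pairs, 1 point per library in cac1, cac2, cac3 and wild type, with pairs ordered by the wild-type mean. Points of a pair lie close together beside the spread between pairs; RPL15 stands highest and RPL36 lowest.

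The balance of the copies changed little. The median size of the change was 0.04 on the log2 scale. In 2 of 34 pairs all mutant libraries lay on one side of both wild-type libraries, as in 10.5% of the 57 A and B pairs of the whole table. The RPL7 ratio was 1.38 and 1.34 in cac1, 1.38 and 1.29 in cac2, 1.23 and 1.29 in cac3, and 1.20 and 1.16 in wild type. Its change of 0.14 reached the smallest p that the 28 splits of 2 against 6 libraries allow (exact permutation p = 0.0357, two-sided; 0.407 after Benjamini-Hochberg adjustment over the 57 pairs). The RPL7B feature holds SNR59, as said above. The RPL1 ratio was -0.84 and -0.68 in cac1, -0.70 and -0.73 in cac2, -0.82 and -0.80 in cac3, and -0.92 and -0.88 in wild type, a change of 0.14 (exact permutation p = 0.0714, adjusted 0.61). Paired within replicate numbers, 4 pairs moved to one side, and without cac2 replicate 1 the count was 4. Without wild-type replicate 1 or wild-type replicate 2 it was 9 each. With 1 wild-type library left a pair lies on one side more easily, so these counts of 9 cannot be set against the 2 above. Shares over the 57 pairs were not counted for these settings.

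The calls were also set side by side within pairs. Both copies fell in 16 pairs, 1 copy in 7 and neither in 11. Among the A copies 18 fell, with a median log2 change of -0.17, and among the B copies 21 fell, with a median of -0.18. Of the 12 members with no partner among the members 7 fell, with a median of -0.20.

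Other genes of the pathway were counted for comparison. Of the small-subunit genes, 36 of 55 fell and none rose in the mean of the mutants, by a median of -0.19, with RPS14B at -0.42, RPS9A at -0.37 and RPS4B at -0.31, and 23 of their windows rose and 2 fell (median 0.57). The 11 measured regulators, among them RAP1, FHL1 and the shared feature of IFH1, gave no fall and 1 rise, a share close to the 10.8% of ORF-Ts that rose. Of their windows 6 rose and 2 fell (median 0.93), beside 18.4% and 4.32% of ORF-T windows. CRF1, whose product is a corepressor of these genes, had 17.9 and 15.2 RPKM in cac1, 18.3 and 16.2 RPKM in cac2, 13.99 and 13.5 RPKM in cac3, and 11.8 and 9.78 RPKM in wild type. It rose by 0.59 on the log2 scale (SE 0.13, edgeR adjusted p = 0.00916), with all mutant libraries above both wild-type libraries. Of 16 dedicated chaperones and assembly factors of large-subunit proteins, 1 fell and none rose (median 0.06), beside 8.35% and 10.8% of ORF-Ts. The 1 that fell was RLP7, whose product resembles Rpl7 and acts in subunit assembly, at -0.23 (edgeR adjusted p = 0.0439).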

How the data were processed

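Whole-number counts of reads per feature were deposited by the authors for 8 libraries, in 1 table of ORF-Ts and other features and 1 of CUTs and SUTs per library. Estimated counts of the 5′ window were deposited with empty windows entered as 0.5, in 1 to 126 windows per library; here these became 0. RPKM values were deposited by the authors too and were used only to recover the window width. Per the labels, the RNA was extracted as in an earlier NET-seq study. The sources used here do not name the genome build, the aligner or the treatment of repeated sequence.

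Features with at least 1 RPKM in at least 2 libraries entered the tests: 7271 features, including 5171 ORF-Ts and all 80 members, and 5494 windows, including all 80 of the members. Scaling between libraries used edgeR's TMM factors from ORF-T features (0.964 to 1.02), for windows as well. One edgeR 4.0.16 quasi-likelihood fit in R 4.3.3 over all features and 8 libraries, with a coefficient per group, gave log2 changes and p-values. Benjamini-Hochberg adjustment was over all features of a comparison. The threshold was 0.05, and "rose" and "fell" refer to it. The fit gives no SE, so SEs were computed here as the size of the log2 change over the square root of its F statistic. The biological coefficient of variation was 8.13% for features and 13.3% for windows. DESeq2 1.42.0 was an alternative test. Tables were built with Python 3.11.15, pandas 2.3.3 and scipy 1.17.1, and the fits were tested on simulated data. Intervals on read ratios cover counting error only, since no molecular identifiers are recorded.

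Deviations of replicate 1 from its group mean correlated between groups over ORF-Ts (Pearson r from 0.377 to 0.578 over the 6 pairs of groups). Replicate numbers were therefore taken as pairing libraries. Values with the replicate block are given where they move a count of members by over 1.5 times. The main fit and the permutation test did not use the pairing. Replicate 1 was the shallower library in cac1, cac2 and wild type but not in cac3, and the part of depth in these correlations was not tested.

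A scaling without ribosomal protein genes was added after the data were seen. Labels call the replicates biological but do not name separate cultures, so p-values measure the spread between these libraries.

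Members and gene lists were chosen with earlier results of these data known. Named were the 8 members with the largest falls (called, groups not overlapping; no member met the same rule for a rise), the stalk and ubiquitin-fusion genes, 8 members of known role, the 5 highest and 5 lowest, the 4 most and 3 least unequal pairs, pairs whose ratio moved to one side, the windows with the largest changes called (up to 4 each way) and up to 3 members each way between mutants. 1 member that this rule names, with its pair, is not reported here. Others in the text were singled out after their values were seen. Of the regulators listed, SFP1 and TOD6 were not analysed here.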

Additional observations from a re-analysis of the deposited data

Results flagged for a closer look

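A difference between mutants under the same contrast with wild type drew attention in 2 comparisons. Of the 80 large-subunit genes, 11 were lower in cac1 than in cac3 past an edgeR adjusted p of 0.05, among them RPL43B, RPL26A, RPL36B, RPL11B, RPL20B, RPL21B, RPL2B, RPL20A, RPL22B and RPL2A. Their differences ran from -0.41 (RPL43B) to -0.23 (RPL2A) on the log2 scale, and 0.793% of ORF-Ts were lower. The count was 0 without either cac3 library and 1 without cac1 replicate 1. In cac2 against cac3, 1 gene was lower, RPL8A, at -0.31, as were 0.348% of ORF-Ts, and the call was lost when any cac2, cac3 or wild-type library was left out. Groups of 2 libraries are too small for a search for single libraries that stand apart.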

How the results depend on the processing

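Counts of the 80 members were recomputed under each alternative, and the causes of the shifts were not tested. Calls over all ORF-Ts moved as well, also when 1 library was left out. In the mean of the mutants 8.35% of ORF-Ts fell, against 4.51% without scaling, 3.95% with DESeq2 and 13.5% with the replicate block. Member counts alone therefore do not show a shift particular to the members. Feature counts: without scaling beyond total reads, 24 fell in the mean of the mutants, 13 in cac2 and 1 in cac3, and 5 were lower in cac1 and 0 in cac2 than in cac3. With DESeq2, 1 fell in cac3 and 25 were lower in cac1 than in cac3. With only the groups compared in the fit, 6 fell in cac3, and 2 were lower in cac1 and 0 in cac2 than in cac3. With the replicate number as a block, 1 rose in cac1, 42 fell in cac2 and 9 in cac3, 50 were lower in cac1 than in cac3 and 4 than in cac2; 4 paralogue pairs lay apart. Windows: DESeq2 gave 13 higher and 0 lower in the mean, 11 higher and 0 lower in cac1, 14 higher in cac2 and 3 in cac3. The block gave 21 higher and 1 lower in cac3, no scaling gave 1 lower in cac1, and scaling on the windows gave 3 lower in the mean, 2 in cac2 and 1 in cac3. Leaving out 1 library at a time, feature falls ranged over 5 to 55 in the mean, 14 to 64 in cac1, 4 to 29 in cac2 and 0 to 2 in cac3, and members lower than in cac3 over 0 to 18 for cac1 and 0 to 1 for cac2. Higher windows ranged over 6 to 33 in the mean, 6 to 25 in cac1, 6 to 31 in cac2 and 1 to 10 in cac3, lower ones over 0 to 1 in the mean and 0 to 2 in cac1, and pairs apart over 2 to 9. The 9 pairs apart arose with 1 wild-type library left, where a pair lies on one side more easily. Without ribosomal protein genes in the scaling, 50 fell in the mean. The RPKM minimum, DESeq2 size factors and entering empty windows as 1 moved none of these counts past 1.5 times. Of 490 values for 33 named gene results, 449 kept their direction and side of the threshold, 30 lost the call, 11 gained it and none reversed. Each group had 2 libraries, and 13 members had under 100 window reads in all.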
